A study of Oryctolagus cuniculus with 8 samples.

Results

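ABCB1, ABCB11 and ABCC9 encode membrane proteins of the ABC (ATP-binding cassette) family, and they were the members of that family chosen here, by RefSeq accession, from the probes of a rabbit array. Their 7 probes, of 43603 in all, comprised 1 for ABCB1 (NM_001082159), 3 for ABCB11 (NM_001082083) and 3 for ABCC9 (NM_001082044), and the 3 genes stood among 680 that could be named. RNA from 8 samples of cultured cells of Dutch rabbits was measured on 1 single-colour Agilent array each. The groups were iPS cells (induced pluripotent stem cells, body cells returned to an embryonic state) at late passage and at early passage, embryonic stem (ES) cells, and the somatic cells of liver and stomach, with 2 samples in each group. The iPS cells were 1 line of liver origin, iPS-L1, at passages 23 and 7, and 1 line of stomach origin, iPS-S1, at passages 22 and 6. The ES lines were rdES4 and rdES2-1. Pluripotent cells grew in stem cell medium and somatic cells in somatic cell medium, so that medium and cell type cannot be told apart, and each origin was represented by a single iPS line. Nothing in the labels says which factors were used for reprogramming or that samples of a group came from different animals, so that the p-values below cover the spread between these samples only, which may be partly technical.

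ABC transporters couple ATP hydrolysis to the movement of molecules across membranes. ABCB1 is P-glycoprotein, the multidrug efflux pump that exports many lipophilic drugs at barriers such as intestine, bile canaliculus and brain capillary. ABCB11 is the bile salt export pump of the hepatocyte's canalicular membrane, whose transcription in human and mouse liver is induced by the nuclear bile acid receptor NR1H4 (FXR). ABCC9 transports nothing itself as far as is known: it is SUR2, the sulfonylurea receptor that surrounds a potassium pore to form the ATP-sensitive potassium channel of heart and vascular smooth muscle, and its usual pore partners are KCNJ8 (Kir6.1) and KCNJ11 (Kir6.2). The gene table lists SUR2A among the synonyms of ABCC9. It lists Abcb4 and MDR3, names that are also used for the neighbouring phospholipid transporter, among those of ABCB1, so that the ABCB1 probe is reported for its accession and reads shared with a close relative were not tested.

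Levels are given as the log2 of the processed signal minus the 75th percentile of the array, so that 0 is that percentile's own brightness, and each member probe was 1 spot on each array. That percentile was brighter on the 6 pluripotent arrays, at 273.8 to 341.5 signal units, against 163.8 units in liver and 154.8 units in stomach cells. The share of probes well above background was 62.4% to 64.7% on pluripotent arrays, against 57.8% in liver and 58.4% in stomach cells. The dimmest probe still well above background stood at -5.54 to -5.36 on pluripotent arrays, against -4.53 in liver and -4.65 in stomach cells. Albumin (ALB) stayed near background even in the liver cells, and so did ATP4B, a subunit of the gastric acid pump, even in the stomach cells. Other markers were measured: 5 of 7 named hepatocyte genes were well above background in liver cells, as on every other array. Of 4 named gastric epithelium genes, 3 were well above background in stomach cells and 2 on each other array. Slide 1 held the liver iPS arrays, rdES4 and the liver cells, slide 2 rdES2-1 and the stomach cells, and slide 3 the stomach iPS arrays.

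The members fell into a detected and an undetected part. ABCB1 was well above background on all 8 arrays, ABCC9 in 15 of 24 measurements over its 3 probes, and ABCB11 in 1 of 24. The 4 probes of ABCB1 and ABCC9 passed the filter for testing, which asked that a probe be well above background on both arrays of at least 1 group, and the 3 probes of ABCB11 did not. Comparisons with somatic cells share the same 2 somatic arrays.

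**Figure D1:**
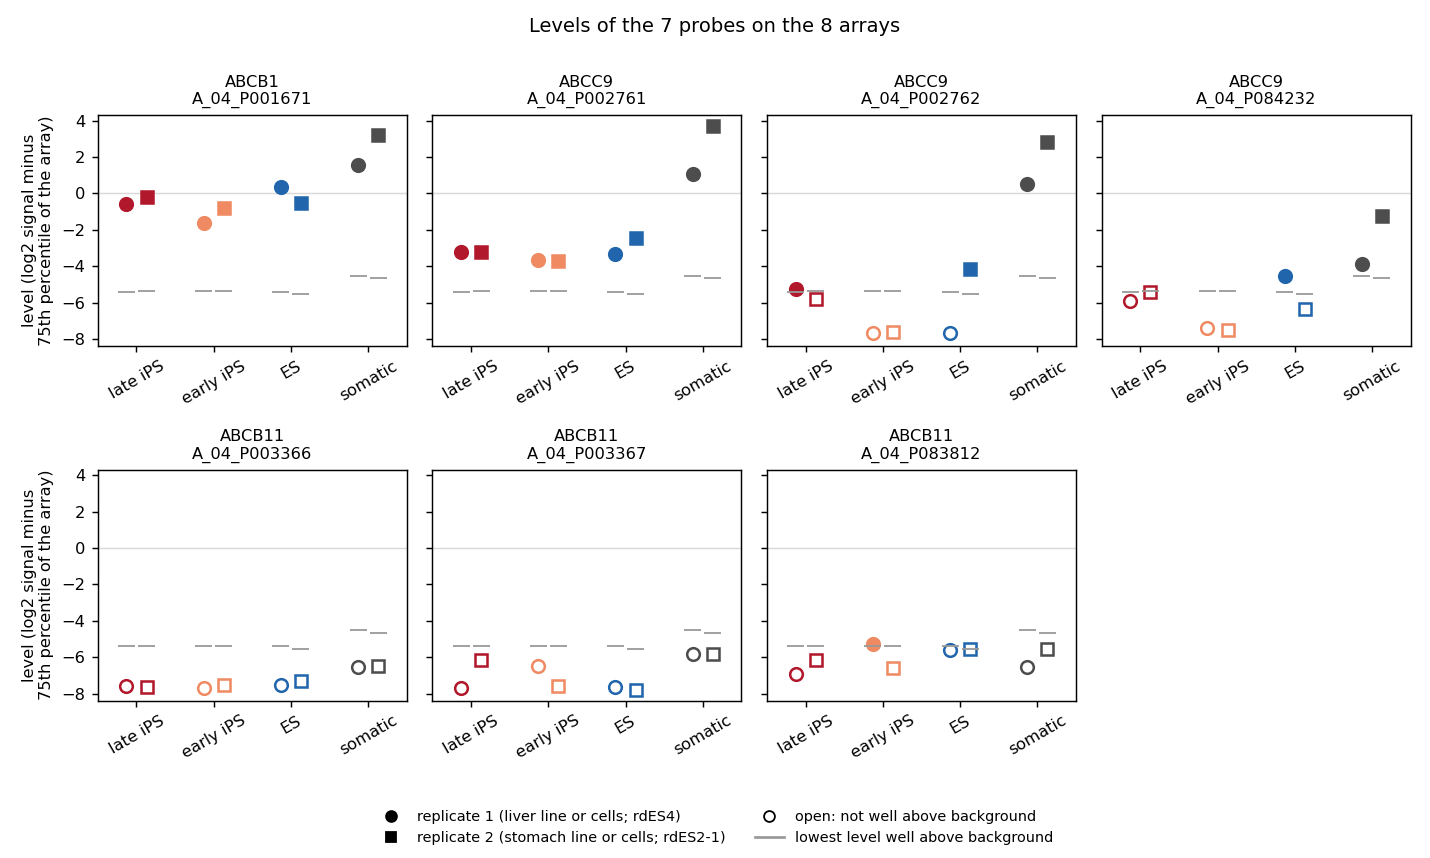
Levels (vertical axis, log2 signal minus the 75th percentile of the array) of the 7 probes on each of the 8 arrays, by group, with circles for replicate 1 and squares for replicate 2, open symbols where the spot was not well above background, and grey bars at the lowest level well above background on that array. ABCB1 and the brightest ABCC9 probe are filled on every array and highest in stomach cells (3.19 and 3.73), whereas ABCB11 has 1 filled symbol among 24.

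ABCB1, the drug efflux pump, was present in every sample and was lower in pluripotent than in somatic cells. Its level was -0.58 in the liver line and -0.21 in the stomach line at late passage, and -1.60 and -0.79 at early passage. It was 0.33 in rdES4 and -0.50 in rdES2-1, against 1.56 in liver cells and 3.19 in stomach cells. Both somatic arrays thus lay above all 6 pluripotent arrays, and the order of group means was early iPS, late iPS, ES and somatic, with the late iPS and ES arrays overlapping. The scanner's own error of the spot was between 10.0% and 10.2% of the signal on every array.

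In iPS cells ABCB1 averaged -0.79 ± 0.42 (SD, n = 2 lines, each the mean of its passages) against 2.37 ± 1.15 in somatic cells (SD, n = 2). This is a log2 difference of -3.17 ± 0.62 (SE), or 8.99-fold lower, with adjusted p = 0.00796 by limma. Of all 28841 tested probes, 66.6% were called in this comparison, 32.4% as lower, so that a call by itself was the commoner outcome, and 5.96% of tested probes fell by as much or more. In ES cells ABCB1 averaged -0.09 ± 0.59 (SD, n = 2), a log2 difference from somatic cells of -2.46 ± 0.62 (SE), or 5.51-fold lower (limma adjusted p = 0.0193). Here 64% of tested probes were called, 29.6% as lower, and 8.34% fell by as much.

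The size of the ABCB1 difference varied with the somatic sample it was set against. On slide 1, the log2 difference from the liver cells was -2.65 in the liver iPS line and -1.23 in rdES4, and on slide 2 that of rdES2-1 from the stomach cells was -3.70. For the stomach iPS line, on another slide than the stomach cells, it was -3.69. With slide as a block in the fit, neither comparison was called, at -3.27 for iPS cells and -2.46 with limma adjusted p = 0.0631 for ES cells. In that fit the iPS value rests on the liver line alone, since the stomach line was the only one on its slide. The ES value could not change there, since rdES4 shared slide 1 with the liver cells and rdES2-1 slide 2 with the stomach cells. The slide terms also leave less to estimate the spread from. Without rdES2-1 the ES comparison was not called either (-2.04, adjusted p = 0.0993).

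ABCC9, the regulatory subunit of ATP-sensitive potassium channels, showed the largest difference of the 3 genes and was low in every pluripotent sample. By its brightest probe, A_04_P002761, the level was -3.23 in the liver line and -3.24 in the stomach line at late passage, and -3.66 and -3.69 at early passage. It was -3.32 in rdES4 and -2.47 in rdES2-1, against 1.08 in liver cells and 3.73 in stomach cells. With passages averaged, the stomach iPS line minus the liver iPS line was -0.016 on the log2 scale, while stomach minus liver cells was 2.65.

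By this probe ABCC9 was 58.1-fold lower in iPS cells, with -3.46 ± 0.011 (SD, n = 2 lines) against 2.41 ± 1.87 in somatic cells (SD, n = 2), a log2 difference of -5.86 ± 0.88 (SE, limma adjusted p = 0.00333). Only 1.39% of tested probes fell by as much in that comparison. In ES cells it averaged -2.90 ± 0.60 (SD, n = 2) and was 39.5-fold lower than in somatic cells, a log2 difference of -5.30 ± 0.88 (SE, limma adjusted p = 0.00482). The ES call was also made with slide as a block (limma adjusted p = 0.00964). In that fit the iPS difference, which rests on the liver line alone, was -4.98. Within slide 1 the difference of this probe from liver cells was -4.53 in the liver iPS line and -4.41 in rdES4, and within slide 2 that of rdES2-1 from stomach cells was -6.20.

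The other ABCC9 probes were dimmer and passed the filter for testing only through the somatic arrays, where they are high, so that their direction was partly set by that filter and they are given as description. Probe A_04_P002762 was at 0.54 in liver and 2.84 in stomach cells, and of the pluripotent arrays only the late liver iPS array (-5.24) and rdES2-1 (-4.17) were well above background. Its difference was -8.27 ± 1.32 (SE) in iPS cells (limma adjusted p = 0.00405) and -7.61 ± 1.32 (SE) in ES cells (adjusted p = 0.00556), each against somatic cells. With dim arrays raised to the lowest level well above background, these differences were -7.03 and -6.47. With normexp background correction, which compresses low signals, they were -4.12 and -3.91, and those of the brightest probe were -4.04 and -3.77.

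The third probe, A_04_P084232, was the dimmest, at -3.88 in liver and -1.26 in stomach cells. No iPS array had it well above background, which makes it at least 7.01-fold lower in iPS than in somatic cells (limma adjusted p = 0.0198, measured means -6.55 and -2.57), a p that carries the same selection. With slide as a block, where the iPS value rests on the liver line alone, it was not called (-3.89). In ES cells, where it was well above background in rdES4 alone, the difference was -2.88 ± 1.02 (SE) and was not called (limma adjusted p = 0.0558). Within slide 1 this probe differed little between rdES4 and the liver cells (-0.64), both well above background, and 29.1% of tested probes fell as far.

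Over both genes, 4 of 4 tested probes were called lower in iPS cells and 3 of 4 in ES cells, and for all 4 the pluripotent arrays lay wholly below the somatic arrays, as they did for 38% of all tested probes in iPS cells and 39.2% in ES cells. Of the 4, only ABCB1 and the brightest ABCC9 probe were well above background on every array, and the other 2 could enter the count only by being high in somatic cells, so nothing is read from it. The 3 ABCC9 probes share a transcript and are not independent measurements.

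**Figure D2:**
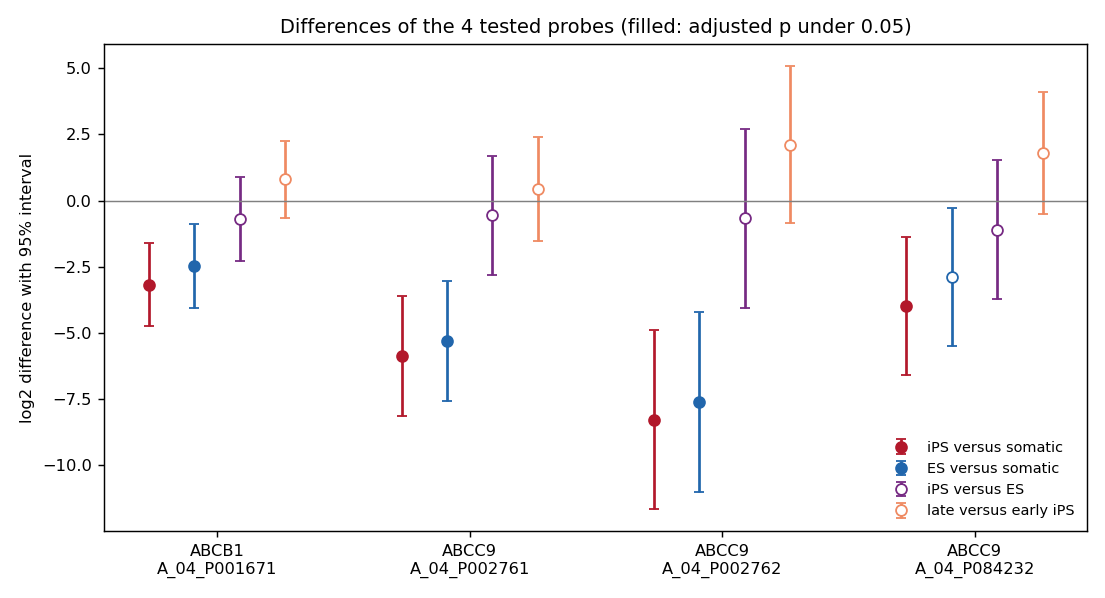
Log2 differences (vertical axis) with 95% intervals from limma for the 4 tested probes in 4 comparisons, the first group minus the second, with filled symbols where the adjusted p was under 0.05. Both comparisons with somatic cells lie below 0 for every probe, and the intervals of iPS versus ES and of late versus early iPS all span 0.

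iPS and ES cells did not differ detectably in ABCB1 or ABCC9. The ABCB1 difference was -0.71 (95% interval -2.29 to 0.88, limma adjusted p = 0.853) and that of the brightest ABCC9 probe -0.56 (95% interval -2.82 to 1.70, limma adjusted p = 0.932). These intervals leave room for differences of several fold in either direction for ABCC9 and downwards for ABCB1. None of 28841 probes was called between iPS and ES cells by limma (0%), while 2141 had an unadjusted p under 0.05. On slide 1, the liver iPS line minus rdES4 was -1.42 for ABCB1. All 4 tested member probes had lower means in iPS cells, but the arrays of the groups overlapped for each of them (13.4% of tested probes lay wholly lower in iPS cells). With slide as a block, where the iPS value rests on the liver line alone, the sign turned for the ABCC9 probes A_04_P002761 (0.32) and A_04_P002762 (0.91).

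The ES lines also differed from each other. ABCB1 was lower in rdES2-1 than in rdES4 (-0.84), whereas the brightest ABCC9 probe was higher in rdES2-1 (0.85), and the SD of that difference over all tested probes was 0.489. The ABCC9 probes did not run alike here, since A_04_P084232 was lower in rdES2-1 (-1.85, or -1.02 with the dim array raised) and A_04_P002762 higher (3.48, or 1.22 with the dim array raised). With 1 array a line these are values without a test, and the lines were on different slides.

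Both genes read higher at late than at early passage in each iPS line, by amounts that the test did not separate from the spread. ABCB1 was higher at late passage by 1.02 on the log2 scale in the liver line (slide 1) and by 0.58 in the stomach line (slide 3), a mean difference of 0.80 ± 0.60 (SE, 95% interval -0.65 to 2.26, limma adjusted p = 0.792). The brightest ABCC9 probe was higher by 0.43 and 0.44, a mean of 0.44 ± 0.81 (SE, limma adjusted p = 0.948). All 4 tested member probes were higher at late passage in both lines, as were 29.3% of tested probes, and their late arrays lay wholly above the early ones, as for 19.8%. The other ABCC9 probes showed larger differences, 2.11 for A_04_P002762 and 1.79 for A_04_P084232, but the early arrays were not well above background for either, and with dim arrays raised to the lowest level well above background the differences were 0.05 and -0.03. Between passages 8 probes were called by limma (0.0277% of those tested), and 0 with the iPS line as a block, where 2533 had an unadjusted p under 0.05.

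Stomach cells carried more of both transcripts than liver cells. ABCB1 was 3.10-fold higher in stomach cells, and the ABCC9 probes were 6.26-fold (A_04_P002761), 4.94-fold (A_04_P002762) and 6.17-fold (A_04_P084232) higher. Of all tested probes, 5.22% were at least 2-fold higher in stomach cells, and 0.811% differed as much as the brightest ABCC9 probe. There was 1 array of each tissue, on different slides, so that tissue and slide cannot be told apart. In such bulk samples fewer expressing cells and less RNA per cell cannot be told apart either.

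ABCB11, the bile salt export pump, was well above background in 1 of 24 measurements, and on both arrays of no group. Its signal lay between 1.35 and 8.90 units over the 3 probes on ES and iPS arrays, against 1.75 to 3.27 units on the somatic arrays. Probes A_04_P003366 and A_04_P003367 were not well above background on any array, and the spot error of A_04_P003366 was 73.9% to 99.8% of its signal. Probe A_04_P083812 was well above background only in the early liver iPS array, at 8.90 ± 1.97 units (spot error), and read 2.76 units in the same line at late passage and 1.78 units in liver cells. The liver cells therefore gave no ABCB11 signal above background with any of the 3 probes.

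Because the pluripotent and somatic arrays were scaled by percentiles that differ, dim probes need care. When all 43565 probes were tested without the filter, limma called A_04_P003366 (-1.11, adjusted p = 0.00465) and A_04_P003367 (-1.14, adjusted p = 0.00431) lower in iPS than in somatic cells. The 11233 probes not well above background on any array had a median log2 difference of -0.86 in the same comparison, and of 0.15 before scaling between arrays. No direction is therefore given for ABCB11.

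The bile acid genes named on the array give the setting of ABCB11. Of 21 genes listed for bile acid synthesis and transport, 4 were named on the array and 2 were tested. NR1H4, the bile acid receptor, was at 0.26 in liver and -2.89 in stomach cells by its brighter probe and was not well above background on any pluripotent array, at least 16.7-fold lower in iPS than in somatic cells (limma adjusted p = 0.00412) and at least 17.7-fold lower in ES cells (adjusted p = 0.00422). Its other probe ran the same way (-0.22 in liver and -3.41 in stomach cells). NR1H4 passed the filter for testing only through the somatic arrays, so that its direction and p-values carry that selection. Liver cells thus carried the receptor's transcript without a measurable level of the pump's. CYP8B1, the sterol 12-alpha-hydroxylase that shapes the bile acid pool, lay close to background, with 6.18 to 10.46 signal units on iPS arrays, against 7.34 units in liver and 9.26 units in stomach cells. limma called its scaled level lower in iPS than in somatic cells (-1.16 ± 0.24 SE, adjusted p = 0.0100), against -0.86 for the median dim probe, and no direction is given for it either. The bile acid uptake carriers SLC10A1 of the hepatocyte and SLC10A2 of the ileum were not well above background on any array with any probe.

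**Figure D3:**
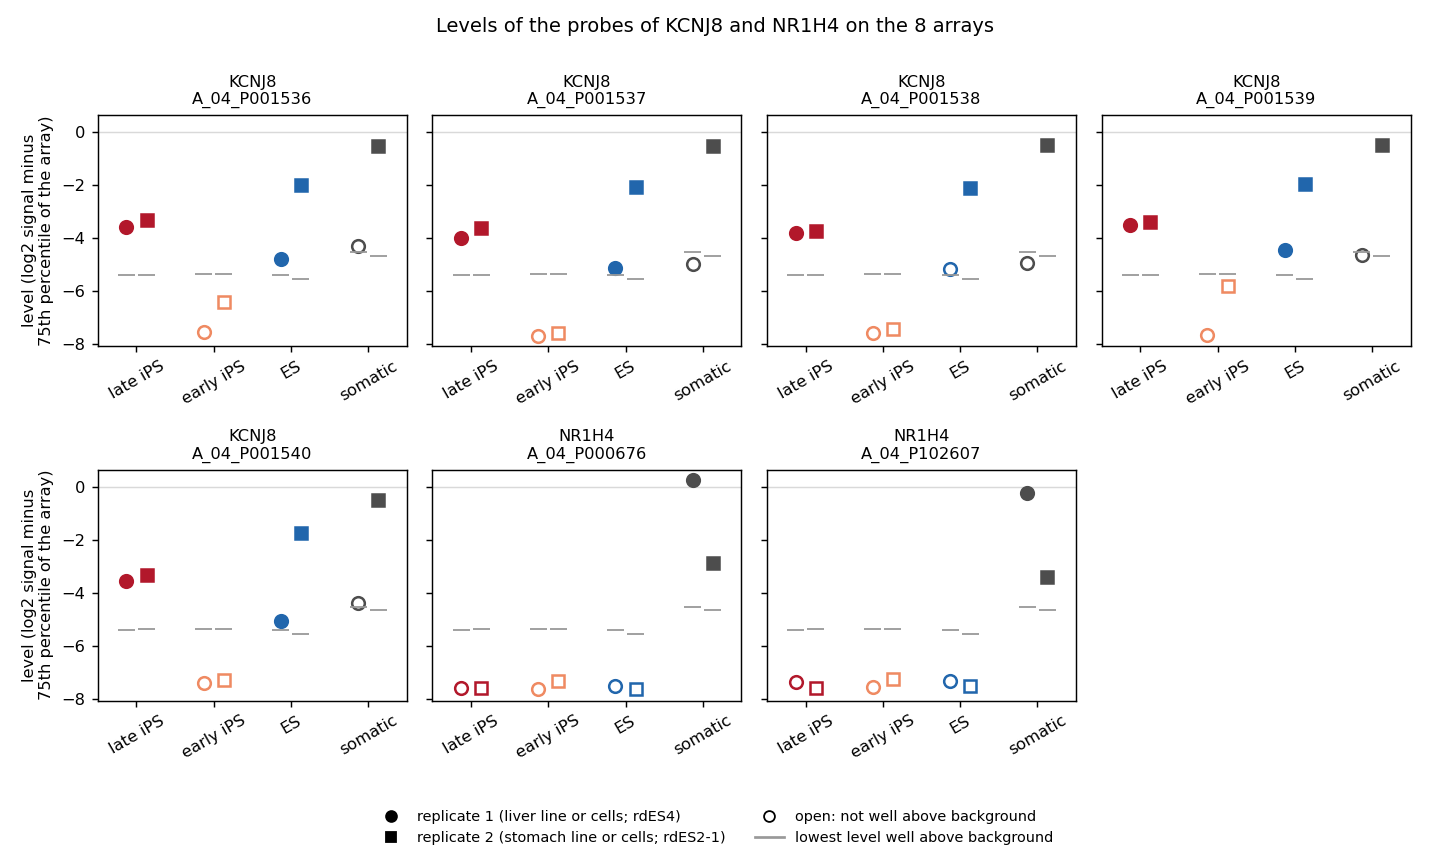
Levels (vertical axis, log2 signal minus the 75th percentile of the array) of the 5 probes of KCNJ8, the pore partner of ABCC9, and the 2 probes of NR1H4, the inducer of ABCB11, with symbols as in the plot of the member probes. All KCNJ8 probes are filled in both late iPS arrays and open in both early ones, and NR1H4 is filled in the somatic arrays alone.

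The pore-forming partners of ABCC9 were measured too, though no test set them against it. KCNJ8, measured by 5 probes, was at -0.46 in stomach cells by its brightest probe and was not well above background in liver cells with any probe, although ABCC9 was readily measured there. It was at -1.93 in rdES2-1 and -4.46 in rdES4. In the late iPS arrays it was at -3.48 in the liver line and -3.40 in the stomach line, and no probe was well above background in the early arrays of either line. The difference between late and early passage ranged from 3.29 to 3.90 over the 5 probes and was not called (limma adjusted p between 0.577 and 0.624). With the early arrays raised to the lowest level well above background, KCNJ8 was at least 2.95-fold to 3.79-fold higher at late passage, depending on the probe.

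Between iPS and somatic cells KCNJ8 ranged from -2.97 to -2.55 over its probes and was not called (limma adjusted p between 0.151 and 0.203), nor was it called between ES and somatic cells (adjusted p between 0.591 and 0.733). KCNJ8 and the brightest ABCC9 probe both read higher in stomach than in liver cells, higher in rdES2-1 than in rdES4 and higher at late than at early passage. This depends on the probe, since ABCC9 probe A_04_P084232 was lower in rdES2-1 (-1.85). With dim arrays raised, the passage differences of A_04_P002762 and A_04_P084232 were 0.05 and -0.03. Of all tested probes, 29.3% were higher at late passage in both lines. KCNJ11, the other pore subunit, was near background throughout, between -5.49 and -4.30, and was well above it on 2 of 4 iPS arrays, both ES arrays and no somatic array. It was not called in any of the 4 comparisons. Of the 12 genes listed for such channels 3 were named and 2 tested, with none called between iPS or ES and somatic cells. Of all tested probes, 66.6% were called in iPS and 64% in ES cells, and 2 genes are too few to read from.

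Genes of drug metabolism, the usual setting of ABCB1, moved in both directions. Of 55 listed genes 16 were named on the array and 12 tested, and 2 were higher and 5 lower both in iPS and in ES cells than in somatic cells. Of all 509 named genes tested, 22.2% were called higher and 45.4% lower in iPS cells, and 21.4% higher and 42.6% lower in ES cells. Their median log2 difference was -0.62 in iPS cells and -0.41 in ES cells, close to the -0.61 and -0.43 of those named genes. UGT1-6, a UDP-glucuronosyltransferase, differed from somatic cells by -4.66 in iPS cells (limma adjusted p = 0.00324) and by -4.42 in ES cells (adjusted p = 0.00398). AHR, the xenobiotic receptor that induces such enzymes, stayed at background in pluripotent cells, at least 5.88-fold lower in iPS (limma adjusted p = 9.19e-05) and at least 6.25-fold lower in ES than in somatic cells (adjusted p = 0.00012). AHR passed the filter only through the somatic arrays, so that its direction and p-values carry that selection. FMO5, a flavin monooxygenase, differed by -1.30 in iPS cells and -0.60 in ES cells, both called lower.

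Among the genes of the list that were higher in pluripotent cells was SLC22A8, taken by its brightest probe. SLC22A8, the organic anion transporter OAT3, stayed at background in somatic cells and was at least 2.19-fold higher in iPS (limma adjusted p = 0.00185) and at least 2.60-fold higher in ES cells (adjusted p = 0.00113). It passed the filter only through the pluripotent arrays, so that its direction and p-values carry that selection. NR1I2, the pregnane X receptor that induces ABCB1 in human liver, stayed at background on all 8 arrays. So did CFTR, the chloride channel of the same ABC family and the only other one of 48 listed family members named here. None of the tested genes of these lists was called between iPS and ES cells or between passages. Of all tested probes, 0% and 0.0277% were called in these comparisons, so nothing is read from this.

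Markers of several cell types also differed between pluripotent and somatic cells. Of 6 named smooth muscle and pericyte genes 5 were tested and 4 fell in iPS and in ES cells, KCNJ8 being the one not called, and MYH11 was not tested. Summed over the 6 genes, their signal was 30.8 to 49.3 times the 75th percentile of the array in iPS cells and 25.5 to 35.9 times in ES cells, against 253 times in liver and 98.7 times in stomach cells. All 4 named fibroblast genes fell in both, with sums of 2.08 to 3.14 in iPS cells and 1.88 to 2.21 in ES cells, against 198 in liver and 106 in stomach cells. Of all named genes tested, 45.4% were called lower in iPS and 42.6% in ES cells. Both sums were higher in liver than in stomach cells, but single members ran the other way, such as DCN, the matrix proteoglycan decorin, at 4.44 in liver and 5.42 in stomach cells, and KCNJ8. The hepatocyte sum was 4.65 in liver and 20.0 in stomach cells, against 3.43 to 4.05 in iPS and 4.39 to 5.94 in ES cells. The gastric epithelium sum was 5.64 in liver and 1.37 in stomach cells, against 0.14 to 0.20 in iPS and 0.18 to 0.19 in ES cells. Neither sum was thus higher in the cells of its own tissue. Among other markers, CTSE, a gastric protease, was at least 108.5-fold lower in iPS than in somatic cells, CD14 of monocytes 9.67-fold lower and RBP4, the retinol carrier, 8.88-fold lower (limma adjusted p = 0.000437, 0.00197 and 0.00838). CTSE was dim in iPS cells, so that its direction and p-value may carry the selection of the filter. The lists of these markers did not all fall. Of 5 tested hepatocyte genes, 1 was called higher and 1 lower, both in iPS and in ES cells. The higher one was TF, by 7.76-fold in iPS and 16.6-fold in ES cells. Of 3 tested gastric genes, 1 was called higher and 1 lower in iPS cells, and 2 higher and 1 lower in ES cells. Of 3 tested endothelium and blood genes, 0 were called higher and 2 lower in iPS and in ES cells. The part of these cell types in the ABCB1 and ABCC9 differences was not tested.

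Among the other named genes, likeness to a member was measured as the root mean square difference of levels over the 8 arrays, each gene centred on its own mean. The genes nearest to ABCB1 were CACNB1, a beta subunit of voltage-gated calcium channels, at 0.371 on the log2 scale, ITGA2B, the platelet integrin alpha-IIb, at 0.494, and GHR, the growth hormone receptor, at 0.497, against a median of 1.36 over 508 genes. CACNB1 was at 0.21 in liver and 1.61 in stomach cells and between -2.66 and -1.72 in pluripotent cells. The nearest to ABCC9 were ST1A8 at 0.522, UGT1-6 at 0.628 and ITIH3, a heavy chain of the inter-alpha-trypsin inhibitors, at 0.639, against a median of 2.39. UGT1-6 was well above background on all 8 arrays, at 0.81 in liver and 2.98 in stomach cells and between -3.13 and -2.51 in pluripotent cells. ST1A8 and ITIH3 were well above background on only 4 and 5 of the 8 arrays, so that their distances and ranks rest partly on background values.

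**Figure D4:**
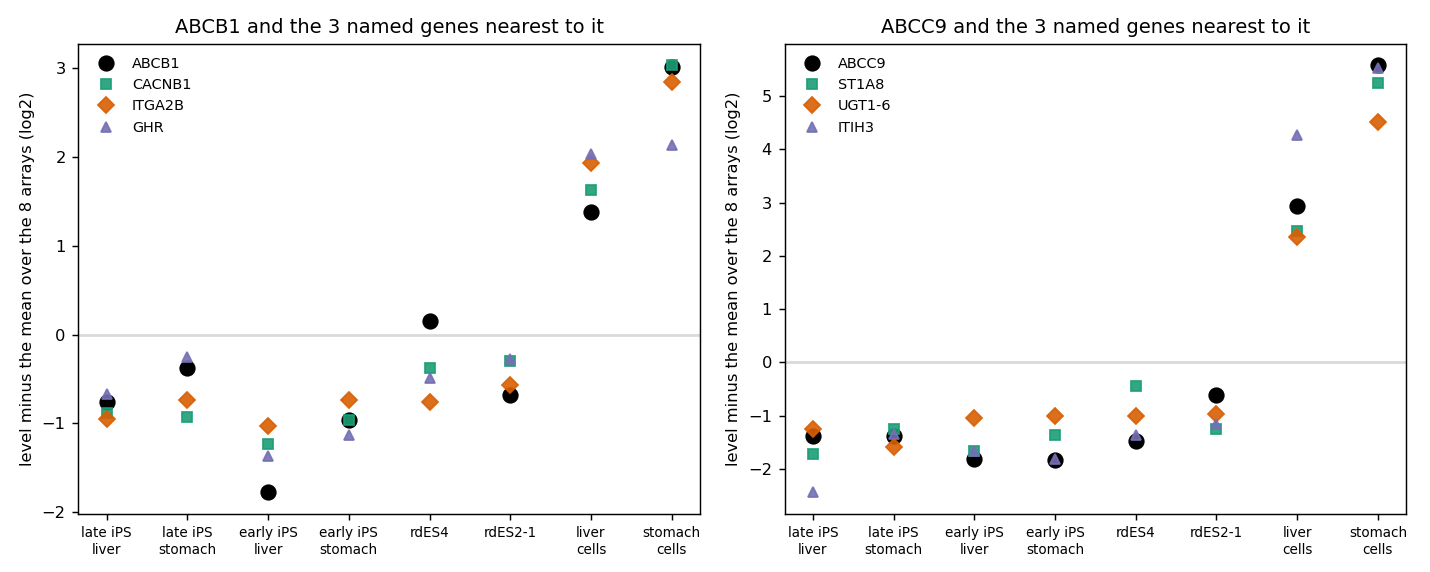
Levels minus their mean over the 8 arrays (vertical axis, log2) of ABCB1 and of ABCC9 (brightest probe), black, with the 3 named genes nearest to each. Within the pluripotent arrays ABCB1 varies more than its neighbours, with its lowest value in the early liver iPS array (level -1.60), and ABCC9, ST1A8, UGT1-6 and ITIH3 all stand higher in stomach than in liver cells.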

How the data were processed

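The deposited files hold spot intensities on a linear scale, which Agilent Feature Extraction 10.5.1.1 had read from the scans, per the file headers, background-subtracted and spatially detrended within each array. The authors' deposited value table, on a log2 scale, matched log2 levels centred per probe (r of 1.00 on every array) and served as an alternative. Here, log2 signals were scaled to the 75th percentile of each array over non-control spots, spots of 1 probe were averaged, and 38 probes with an outlier flag were left out. No spot was saturated. limma 3.58.1 in R 4.3.3 fitted the 28841 probes well above background on both arrays of at least 1 of the 4 groups, two-sided, with Benjamini-Hochberg adjustment over them (threshold 0.05), and was tested on simulated data. Both passages of each iPS line were averaged first, except for the passage comparison, which used 8 arrays in 4 groups. There, liver-minus-stomach differences correlated at 0.224 across probes between passages, the shared line being given by the labels. "At least" folds set dim arrays to the higher of their own level and the lowest level well above background. A p beside such a fold is for the measured difference, and carries the filter's selection where only the high group passed. Symbols came from the RefSeq table of mOryCun1.1, and no coordinates or sequences are given. Named were all member probes, up to 4 genes of each list by size of the moderated statistic, a few further listed genes chosen after their values were seen, and 3 nearest genes; 1 listed gene is not reported here. Members and lists were chosen with earlier results of these data known. The precision is limited by the number of arrays.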

Additional observations from a re-analysis of the deposited data

Results flagged for a closer look

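ABCB11 probe A_04_P083812 was outside the tests and was well above background on the early liver iPS array, at 8.90 signal units, above both somatic arrays (1.78 units in liver and 3.27 units in stomach cells). The other ABCB11 probes were not well above background on that array.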

How the results depend on the processing

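Both ABCC9 calls by the brightest probe held under every alternative with a test. With slide as a block, comparisons of iPS with other groups rest on the liver line, the stomach line being alone on its slide. That fit also has less to estimate the spread from, so fewer calls there are not read as an effect of slide. A slide block left 9925 called probes between iPS and somatic cells in place of 19212, and ABCB1 was not called there (-3.27) or in ES cells (-2.46), while the ABCC9 difference between iPS and ES cells changed sign (0.32 for A_04_P002761, 0.91 for A_04_P002762, for which leaving out 1 array gave -2.41 to 1.08, the highest without rdES2-1). The median of all tested probes between iPS and somatic cells was 0.02, and 0.11 with quantile, -0.40 with normexp and 1.03 without scaling, with ABCB1 at -3.20, -2.52 and -2.16. Higher probes were 9879 of 19212 calls, against 7547 of 22733 with normexp, 16898 of 20482 without scaling and 9545 of 24620 without the filter. Between ES and somatic cells they were 9910 of 18459, against 7365 of 21679, 16556 of 20325 and 9698 of 24169. Leaving out 1 array at a time gave 0 to 35 calls between iPS and ES cells (35 without rdES2-1, 12 without rdES4) and 0 to 101 between passages (47 to 101 without any 1 iPS array, 0 or 1 without an ES or somatic array), ABCB1 differences of -3.98 to -2.35 (iPS) and -3.28 to -1.65 (ES) from somatic cells, and ABCC9 differences of -7.18 to -4.54 and -6.63 to -3.98. Where this left 1 array in a group, it was assumed to vary like the others. Between iPS and ES cells, 2 probes were called without scaling and 6 with 8 arrays in 4 groups. Between passages, 0 were called without the filter, with all arrays above background, with slide as a block or with the iPS line as the replicate block. The mean of the 3 ABCC9 probes differed by 1.44 between passages. With tissue of origin as a replicate block, every member call between iPS and somatic cells was kept (16511 probes called), although liver-minus-stomach differences of iPS lines and somatic cells correlated at only 0.0225. normexp used the median spot signal. Raising dim arrays was added after seeing the data.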
